A study of Mus musculus with 2 samples.

Results

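The 31 genes described here encode ionotropic and metabotropic glutamate receptors and glutamate transporters: 4 AMPA, 5 kainate, 1 GluN1, 4 GluN2, 2 GluN3 and 1 delta receptor subunit, 7 metabotropic receptors, 3 vesicular transporters and 4 plasma membrane transporters. They were chosen by symbol, and all 31 were found among the 43346 annotated genes of the tables. Their RNA was measured in 2 stranded paired-end libraries of polyadenylated RNA from whole brains of C57BL/6J mice at embryonic day 14.5. No allele, transgene or treatment was named for either library, and both belong to 1 group, so there was no contrast and no p-value was computed. The labels number them biological replicates 1 and 2 from littermates of mixed sex, and do not say which animals went into which library, so the spread between them may be technical.

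Glutamate is the main fast excitatory transmitter of the vertebrate brain. AMPA and kainate receptors are tetrameric cation channels that open when glutamate binds. NMDA receptors are built from GluN1 with GluN2 or GluN3 subunits. Those of GluN1 with GluN2 need glutamate, glycine or D-serine as well, and relief from block by magnesium. Metabotropic receptors act through G proteins. Vesicular transporters load glutamate into synaptic vesicles, and plasma membrane transporters on glia and neurons clear it from the extracellular space. In the embryonic forebrain many of these genes are transcribed before most synapses have formed.

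Annotated genes held 103493289 expected counts in replicate 1 and 97539730 in replicate 2, of which the 31 genes took 212755 and 224392. Levels are given as TPM, a unit scaled by transcript length and library total, in which genes can be compared with each other. All 5 neuronal and all 5 radial glia markers of the lists used were at 1 TPM or more in both libraries, and 1 of 4 astrocyte markers was (summed level 18.0 TPM (replicate 1) and 27.8 TPM (replicate 2)). The libraries stood apart in regional markers: 5 cortical excitatory neuron markers summed to 383 TPM (replicate 1) and 148 TPM (replicate 2), and 6 hindbrain and spinal markers to 15.0 TPM and 128 TPM. Mitochondrial genes took 8.49% of TPM in replicate 1 and 12.2% in replicate 2. In bulk tissue, fewer cells of a type and less RNA per cell cannot be told apart.

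Of the 31 genes, 26 reached 1 TPM or more in both libraries, against 62.2% of 21474 protein-coding genes. The levels ran from 0.075 to 128 TPM as means of the libraries, with a median of 11.7 TPM. The AMPA subunit gene Gria2 and the kainate subunit gene Grik5 led, followed by the glial transporter gene Slc1a3 and the kainate subunit gene Grik2. Grin2a, Grin2c, Grin3b, Slc17a8 and Grm6 were below 1 TPM in at least 1 library. In the order of mean levels only 5 of 30 neighbouring pairs had libraries that did not overlap: Grik5 above Slc1a3, Slc1a3 above Grik2, Grm8 above Slc17a8, Grin2a above Grin3b, and Grin3b above Grm6. The other 25 neighbours, Gria2 and Grik5 among them, overlapped. This rule does not pair the values of a library. Some of the overlapping neighbours kept their order within each library. Grid1, for example, was above Grm3 in replicate 1 (6.01 and 3.43 TPM) and in replicate 2 (11.2 and 8.26 TPM). Others, such as Gria2 and Grik5, changed order between the libraries.

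**Figure D1:**
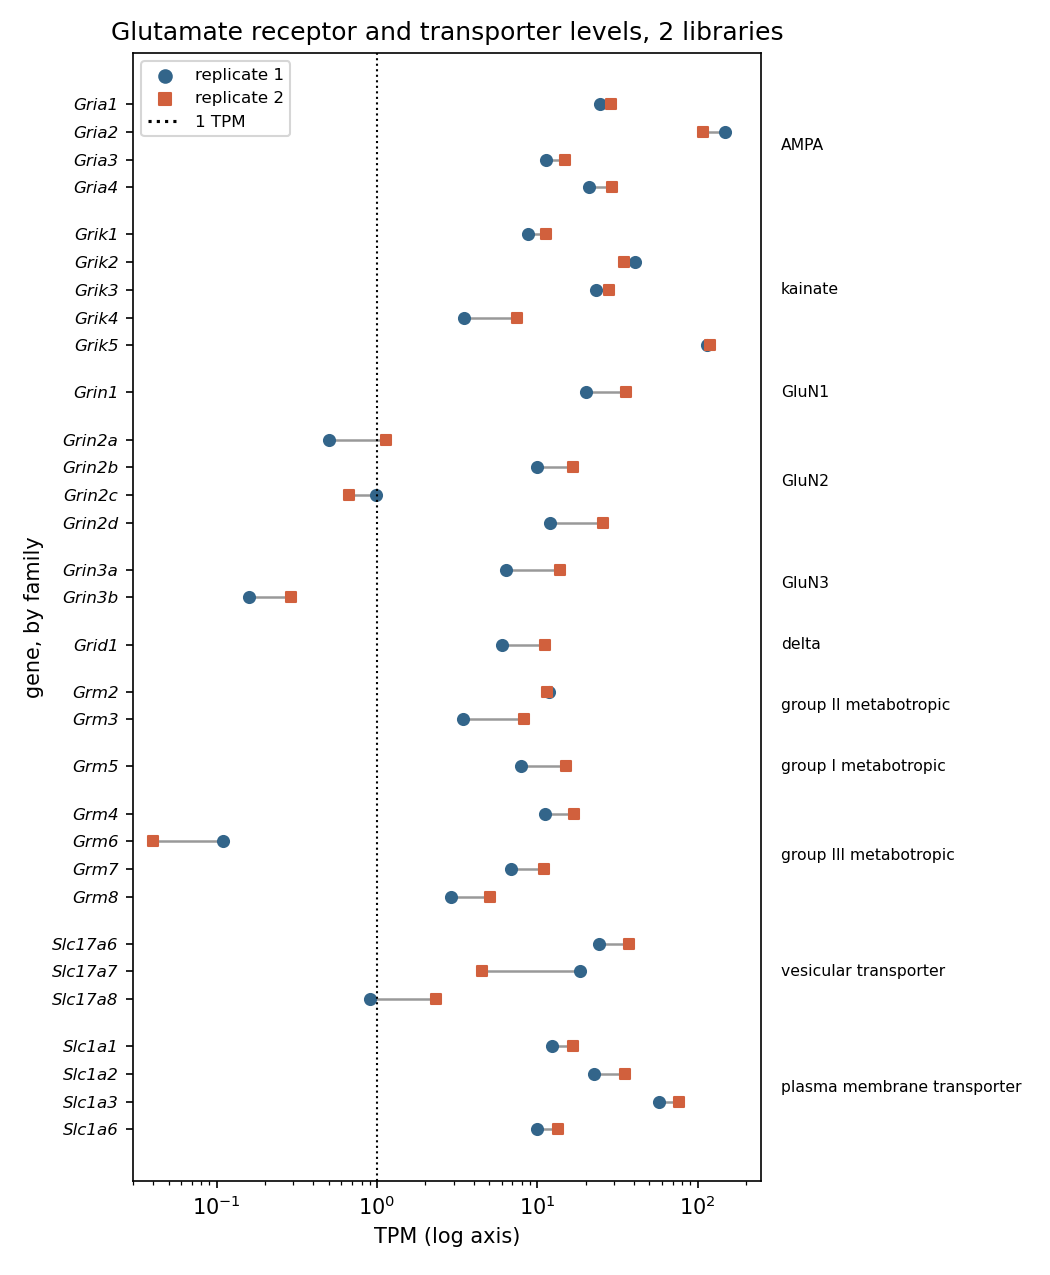
TPM on a log axis for each of the 31 genes, grouped by family, with replicate 1 as circles, replicate 2 as squares and a line joining them. Gria2 and Grik5 lie above 100 TPM in both libraries, and the circles of 25 genes lie to the left of the squares.

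The AMPA receptor genes Gria1 to Gria4 encode the subunits GluA1 to GluA4, and GluA2, whose RNA is edited at a pore codon, makes the channel nearly impermeable to calcium. Gria2 (chr3:80681450-80802835, mm10, minus strand) was at 148 TPM (replicate 1) and 108 TPM (replicate 2), a mean of 128 ± 28.4 TPM (SD, n = 2). It took 72.3% of the summed AMPA TPM in replicate 1 and 59.7% in replicate 2. Both libraries were above every other AMPA gene, and replicate 2 was the lower. Gria1 stood at 24.5 and 29.0 TPM in replicates 1 and 2. Gria4 stood at 21.1 and 29.0 TPM. Gria3, the X-linked member, stood at 11.3 and 15.0 TPM. These 3 genes were all slightly higher in replicate 2, and Gria1 and Gria4 overlapped. Paired genes were called apart if their log2 ratio had 1 sign in the 2 libraries and a mean larger than both 1 and its own SD. Gria2 was apart from Gria1 (mean log2 ratio 2.25 ± 0.49, SD, n = 2), from Gria4 (2.35 ± 0.65) and from Gria3 (3.29 ± 0.61).

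By the transcript estimates, the level of Gria2 RNA that can encode the whole subunit was lower than the gene total. Of the TPM of Gria2, 57.1% in replicate 1 and 53.5% in replicate 2 lay on transcripts annotated as retained introns or as targets of nonsense-mediated decay, a pathway that degrades messages with an early stop. Those transcripts are Gria2-206 (38.2 and 29.5 TPM), Gria2-204 (26.1 and 14.9 TPM) and Gria2-203 (18.7 and 10.7 TPM). The leading coding transcript, Gria2-201, was at 44.4 and 30.1 TPM. Of expected counts, which are not scaled by length, Gria2-201 (10371 nt) took 54.0% and 51.9% in replicates 1 and 2. Gria2-206 took 14.8% and 16.3%, Gria2-204 14.3% and 11.6%, and Gria2-203 7.77% and 6.31%. With protein-coding transcripts of 1000 nt or more alone, an alternative chosen after seeing the data, Gria2 stood at 63.7 and 50.3 TPM and its share of the AMPA genes was 53.8% and 42.1%. It remained the highest of the 4 in both libraries. In Gria1, Gria3 and Gria4 such coding transcripts held 98.3%, 84.1% and 100% of TPM in replicate 1, and 95.7%, 81.8% and 100% in replicate 2.

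All 4 AMPA genes carry a pair of 115-nt exons, flop and flip, of which a full-length coding transcript keeps 1. The choice changes a stretch of the ligand-binding domain next to the last membrane segment, and flip receptors are known as the slower to desensitize and as the common form before birth. The exons are shown because the reads are assigned by them. They are copied from the GENCODE vM21 transcripts at their mm10 positions, and capitals mark the bases at which flop and flip of the same gene differ.
Gria1 flop (chr11:57309769-57309883, plus strand): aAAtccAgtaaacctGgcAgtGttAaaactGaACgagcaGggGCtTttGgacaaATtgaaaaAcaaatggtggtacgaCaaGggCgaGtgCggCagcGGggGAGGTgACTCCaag
Gria1 flip (chr11:57310608-57310722, plus strand): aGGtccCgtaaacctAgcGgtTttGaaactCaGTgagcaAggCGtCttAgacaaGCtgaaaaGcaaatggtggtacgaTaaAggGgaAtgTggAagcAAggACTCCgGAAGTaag
Gria2 flop (chr3:80691320-80691434, minus strand): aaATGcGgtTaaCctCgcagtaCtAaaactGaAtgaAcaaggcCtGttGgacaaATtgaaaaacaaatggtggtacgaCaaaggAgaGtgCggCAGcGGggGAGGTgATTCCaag
Gria2 flip (chr3:80690404-80690518, minus strand): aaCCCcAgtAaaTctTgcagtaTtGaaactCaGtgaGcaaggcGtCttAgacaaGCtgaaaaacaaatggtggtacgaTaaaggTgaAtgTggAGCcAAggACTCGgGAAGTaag
Gria3 flop (chrX:41654810-41654924, plus strand): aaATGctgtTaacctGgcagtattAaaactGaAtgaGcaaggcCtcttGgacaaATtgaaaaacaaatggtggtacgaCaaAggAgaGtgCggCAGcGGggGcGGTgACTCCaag
Gria3 flip (chrX:41669501-41669615, plus strand): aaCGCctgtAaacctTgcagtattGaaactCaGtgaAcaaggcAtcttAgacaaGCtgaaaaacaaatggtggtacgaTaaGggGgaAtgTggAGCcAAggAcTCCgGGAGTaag
Gria4 flop (chr9:4432773-4432887, minus strand): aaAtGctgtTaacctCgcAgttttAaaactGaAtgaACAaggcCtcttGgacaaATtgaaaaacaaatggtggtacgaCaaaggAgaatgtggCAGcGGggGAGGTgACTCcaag
Gria4 flip (chr9:4427030-4427144, minus strand): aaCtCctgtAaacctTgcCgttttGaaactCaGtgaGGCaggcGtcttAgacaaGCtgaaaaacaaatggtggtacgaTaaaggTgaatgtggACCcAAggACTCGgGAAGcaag
In every gene flop is the upstream exon. Flop and flip differ at 36 of 115 bases in Gria1 and in Gria2, at 32 in Gria3 and at 31 in Gria4. The same form is more alike between genes than the 2 forms are within a gene: flip exons are 87.8% to 92.2% identical between the genes and flop exons 87.8% to 94.8%, against 68.7% to 73.0% for flip with flop.

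Reads across the splice junctions of these exons, deposited on mm9 with Ensembl 65 annotation, showed mostly flip in Gria1, Gria3 and Gria4. The junction table holds 2 read counts per junction, R1 and R2, whose numbers are not tied to the 2 samples, so they are given as R1 and R2. Flip took 73.8% of 767 Gria1 reads (95% exact Clopper-Pearson interval 70.5% to 76.9%), with 78.8% in R1 and 70.2% in R2. Flip took 93.3% of 491 Gria3 reads (90.7% to 95.3%), with 94.7% in R1 and 92.5% in R2. Flip took 78.1% of 379 Gria4 reads (73.6% to 82.2%), with 79.2% in R1 and 77.6% in R2. In each of these genes R1 and R2 were on the same side of 50%, and the interval of Gria3 lay above those of Gria1 and Gria4, which overlapped. The intervals treat reads as independent and cover counting error only. The mm10 transcript TPM, which are tied to the samples, gave flip 61.9% and 66.4% of flip and flop in Gria1 (replicates 1 and 2), 99.8% and 99.1% in Gria3, and 74.0% and 78.4% in Gria4. The shorter coding transcript Gria4-203, at 3.07 and 5.57 TPM, holds neither exon and is in none of these shares.

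Gria2 differed from the other 3 in how its reads ran. Over both sides of the exons flip took 64.6% of 2991 reads (62.8% to 66.3%), with 66.7% in R1 and 61.9% in R2. These reads include those of messages that hold both exons, described below, so the share is not a choice between single forms. Of reads that entered either exon from the upstream exon, however, 682 went to flop and 289 to flip, which makes flop 70.2%. Of reads that left for the downstream exon, 377 came from flop and 1643 from flip, which makes flop 18.7%. The side that was read thus reversed the order of the forms in Gria2. In Gria1 the flip share was above 70% on either side, with 206 flip against 71 flop reads entering and 360 against 130 leaving. In Gria4 it was 89 against 24 reads entering and 207 against 59 leaving. In Gria3 it was 178 against 23 reads entering and 280 against 10 leaving.

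Many Gria2 reads joined the flop exon straight to the flip exon. There were 513 of them (315 in R1 and 198 in R2), 57.6% of the 890 reads leaving flop. The same join held 9 of 139 reads leaving flop in Gria1 (6.47%), 18 of 28 in Gria3 (64.3%) and 24 of 83 in Gria4 (28.9%). A message with both holds an extra 115 nt over one with either, which is not a multiple of 3 and so changes the reading frame. A further 462 of the 1433 Gria2 reads leaving the upstream exon (32.2%, with 34.1% in R1 and 29.5% in R2) went to a 41-nt exon before flop that Ensembl 65 did not annotate, and 249 reads joined that exon to flop. The later annotation holds a 41-nt exon there, and it places flop and flip together in Gria2-203, which is classed as a target of nonsense-mediated decay. The length of the 41-nt exon is not a multiple of 3 either, and it is shown because a large share of the reads entered it.
Gria2 short exon (chr3:80691703-80691743, minus strand): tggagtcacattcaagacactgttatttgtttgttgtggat
By transcript TPM, Gria2 transcripts annotated with flip alone were at 19.3 and 20.2 TPM in replicates 1 and 2, and with flop alone at 44.4 and 30.1 TPM. Those with both were at 18.7 and 10.7 TPM. Transcripts without either exon at its exact bounds were at 66.0 and 47.2 TPM, mostly the retained-intron transcripts Gria2-206 and Gria2-204. Only 5 junction reads (2 in R1 and 3 in R2) joined the upstream exon to the downstream exon, so that class does not measure messages that skip both. Flip was 30.2% and 40.1% of the single-form transcripts, below 50% in both libraries, whereas the junction reads over both sides gave flip above 50% in R1 and R2. Messages with both exons add to those reads, entering flop and leaving flip, so the 2 measures do not cover the same molecules. They do not make up the whole difference between the sides. Flip was entered by 289 reads from the upstream exon and 513 from flop, and 1643 reads left it. In Gria1, Gria3 and Gria4 too, more reads left flip than entered it from the upstream exon and from flop. The reason was not tested.

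**Figure D2:**
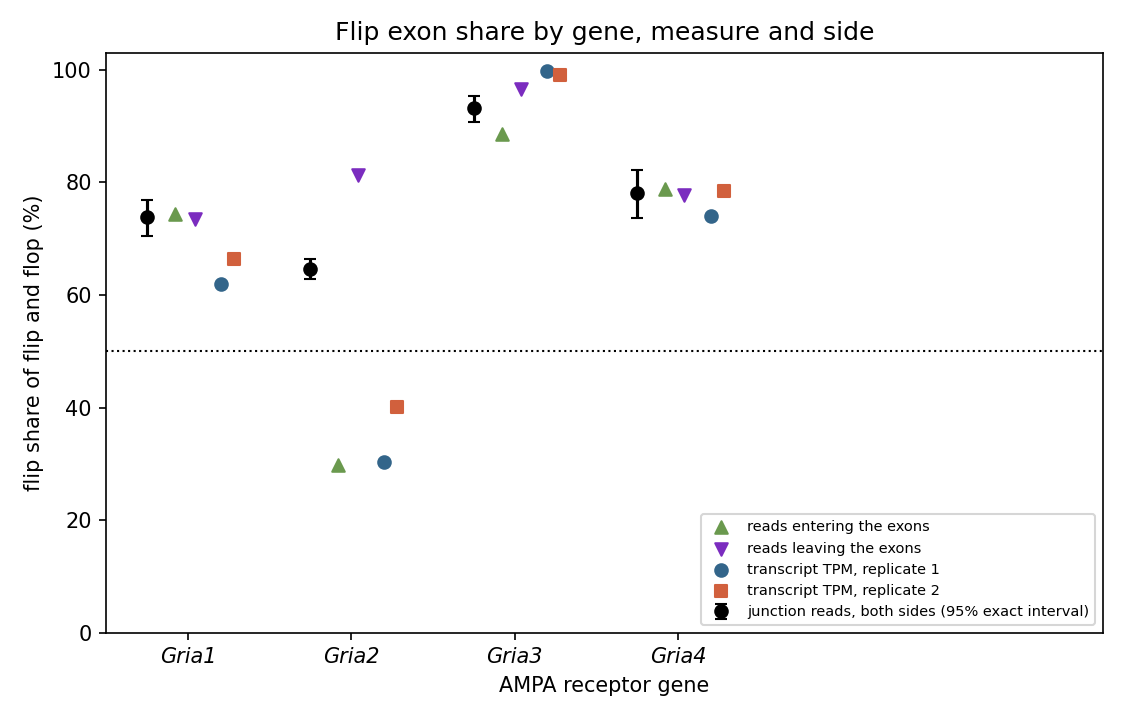
Flip share of flip and flop, in percent, for the 4 AMPA receptor genes. Black points are junction reads over both sides with 95% exact intervals, triangles are reads entering or leaving the exons, and coloured points are shares of transcript TPM in each replicate; for Gria2 alone the measures fall on both sides of the dotted 50% line.

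**Figure D3:**
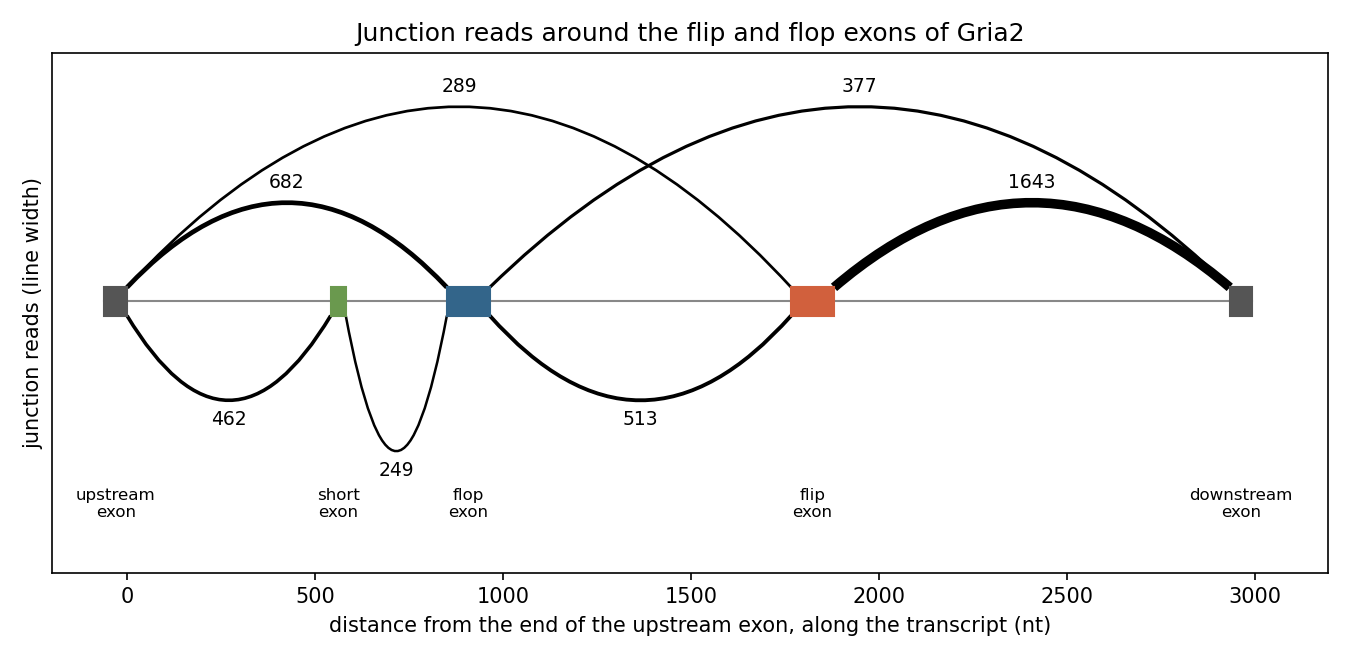
Junction reads around the flop and flip exons of Gria2, with distance along the transcript in nt on the horizontal axis and line width in proportion to reads above a minimum width. The outer exons are drawn only in part; 1643 reads leave flip for the downstream exon and 513 join flop to flip.

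The kainate receptor genes encode GluK1 to GluK5, of which GluK4 and GluK5 bind glutamate with high affinity and need GluK1, GluK2 or GluK3 to form a channel. Grik5, the gene of GluK5 (chr7:25009849-25072346, mm10, minus strand), was at 115 TPM (replicate 1) and 120 TPM (replicate 2), a mean of 117 ± 3.69 TPM (SD, n = 2). It held 60.1% and 59.5% of the family's TPM, so the libraries were close. Grik4 was the lowest of the family at 3.49 and 7.46 TPM, and Grik5 exceeded it by a mean log2 ratio of 4.52 ± 0.73. Of the channel-forming subunits, Grik2 was at 40.5 and 34.6 TPM, Grik3 at 23.4 and 28.2 TPM, and Grik1 at 8.79 and 11.4 TPM. Grik2 was apart from Grik1 (mean log2 ratio 1.91 ± 0.42) and was not apart from Grik3 (0.54 ± 0.35). Grik5, with 1 annotated transcript, also carried the most junction reads of the 31 genes, 48145 on 19 annotated junctions. The kainate genes summed to 191 and 202 TPM, beside 205 and 181 TPM for the AMPA genes, so neither family was higher in both libraries. On protein-coding transcripts of 1000 nt or more the kainate genes were the higher in both, at 150 and 167 TPM without Grik2, which has no such value, against 118 and 119 TPM for the AMPA genes.

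Cassette exons of the kainate genes were included in between 7.85% and 47.4% of reads. In Grik1 the 87-nt exon (chr16:87897054-87897140, mm9) was included in 47.4% of reads (38.1% to 56.9%), with 38.1% in R1 and 54.1% in R2, and the 45-nt exon near the amino terminus in 21.4% (14.6% to 29.6%). Grik1 was the 1 gene of 18 examined whose leading transcript differed between the libraries: Grik1-201 in replicate 1 (51.0% of TPM, against 35.0% for Grik1-202) and Grik1-202 in replicate 2, by a near tie (43.1% against 42.6%). An 87-nt exon of Grik2 was included in 7.85% of reads (5.39% to 11.0%), with 9.04% in R1 and 6.82% in R2. For cassette exons the share is the mean of the reads entering and leaving the exon over that mean plus the reads that skip it.

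The NMDA receptor genes were led by the obligatory subunit gene Grin1 (chr2:25291181-25319187, mm10, minus strand), at 20.2 TPM (replicate 1) and 35.9 TPM (replicate 2). Of the GluN2 genes, which set the kinetics and magnesium sensitivity of the receptor, Grin2d stood at 12.0 and 25.7 TPM and Grin2b at 9.95 and 16.7 TPM. Grin2d held 51.3% and 58.2% of the GluN2 TPM and Grin2b 42.4% and 37.8%. Grin2d was the higher in both libraries but the pair was not apart (mean log2 ratio of Grin2b over Grin2d -0.45 ± 0.25). The mm9 RPKM values gave -1.02 ± 0.13 for the same ratio, which is apart. Grin2a, the subunit that rises after birth, was at 0.50 and 1.13 TPM, from 78 and 199 expected counts. Grin2c was at 0.98 and 0.67 TPM, from 274 and 171 expected counts, and was the one GluN2 gene lower in replicate 2. Grin1 exceeded Grin2b by a mean log2 ratio of 1.06 ± 0.06.

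The glycine-binding GluN3 genes differed widely in level. Grin3a was at 6.34 and 13.8 TPM, and Grin3b was at 0.16 and 0.29 TPM, from 24 and 35 expected counts. Grin3b and Grin2d each overlap a gene of the opposite strand that is far more abundant: Tmem259 (280 and 168 TPM) with Grin3b, and Kdelr1 (198 and 150 TPM) with Grin2d. Both overlapping genes were lower in replicate 2, whereas Grin2d and Grin3b were higher there. The libraries are stranded, but the sources used here do not say whether the counting used strand, and reads of such a pair may be divided wrongly. Grid1, the delta subunit gene, whose protein is a synaptic adhesion partner of cerebellins, stood at 6.01 and 11.2 TPM.

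Grin1 is spliced at an amino-terminal cassette of 63 nt, a carboxy-terminal cassette of 111 nt, and 2 acceptors of the last exon that lie 356 nt apart. The amino-terminal cassette alters the receptor's sensitivity to protons and polyamines, and the carboxy-terminal cassette holds an endoplasmic reticulum retention signal. The cassettes are shown because the Grin1 forms are defined by them, from GENCODE vM21 transcripts with mm10 positions.
Grin1 amino-terminal cassette (chr2:25311343-25311405, minus strand): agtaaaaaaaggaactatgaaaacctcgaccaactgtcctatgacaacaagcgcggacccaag
Grin1 carboxy-terminal cassette (chr2:25294438-25294548, minus strand): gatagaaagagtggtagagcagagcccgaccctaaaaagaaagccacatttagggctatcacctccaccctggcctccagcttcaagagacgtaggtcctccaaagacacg
The amino-terminal cassette was included in 16.6% of reads (12.4% to 22.0%), with 16.7% in R1 and 16.6% in R2. The carboxy-terminal cassette was included in 31.4% of reads (27.0% to 35.9%), with 39.5% in R1 and 27.1% in R2. By side, the share was 27.0% from the 111 reads entering it and 35.2% from the 163 leaving it, against 300 that skipped it. At each of the 2 sites most Grin1 reads skipped the cassette. The choice of acceptor went with the cassette: the proximal acceptor took 123 of 163 reads from transcripts with the cassette (75.5%, 68.1% to 81.9%), and 99 of 300 from transcripts without it (33.0%, 27.7% to 38.6%). The 2 intervals did not overlap, and the order held in R1 (75.0% and 19.8%) and in R2 (75.9% and 38.8%).

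The metabotropic receptor genes fall into group I, which couples to phospholipase C, and groups II and III, which lower cyclic AMP. Grm5 of group I was at 7.96 TPM (replicate 1) and 15.0 TPM (replicate 2). In group II, Grm2 was at 11.8 and 11.6 TPM, nearly equal, and Grm3 was at 3.43 and 8.26 TPM. The mean log2 ratio of Grm5 over Grm3 was 1.04 ± 0.25, just past the call, and it was 0.80 to 0.94, not apart, with a pseudocount of 1, mm9 RPKM, coding transcripts alone or without replicate 1. Grm2 was the higher of the group II genes in both libraries and apart from Grm3 on the mean (log2 ratio 1.13 ± 0.91), although replicate 1 gave 1.78 and replicate 2 gave 0.48. The pair was not apart with a pseudocount of 1 (0.98), with mm9 RPKM (0.75) or without replicate 1. In group III, Grm4 was at 11.1 and 17.0 TPM, Grm7 at 6.85 and 11.0 TPM and Grm8 at 2.91 and 5.07 TPM. Their shares of the group changed little between the libraries: Grm4 took 53.0% and 51.4%, Grm7 32.6% and 33.2%, and Grm8 13.9% and 15.3%. The mean log2 ratio of Grm7 over Grm8 was 1.18 ± 0.08, and 0.99, not apart, with a pseudocount of 1. Grm6, the receptor of retinal ON bipolar cells, was at 0.11 and 0.04 TPM, from 17 and 11 expected counts.

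Exons that distinguish carboxy-terminal forms were found in few reads of the metabotropic genes. The 96-nt exon of Grm5, which lengthens the cytoplasmic tail, was included in 10.3% of reads (5.24% to 17.7%), with 1.82% in R1 and 13.2% in R2. The 92-nt exon of Grm7, which gives the other carboxy terminus, was included in 1.94% (0.312% to 8.96%), with 6.12% in R1 and 0% in R2, from 3 reads entering and 0 leaving. With only junctions of a reproducibility value of 0.1 or less its share was 0%. These shares rest on about 107 and 78 reads.

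Among the vesicular transporter genes, the 3 levels summed to 43.5 TPM (replicate 1) and 44.5 TPM (replicate 2), and their makeup differed. Slc17a6, the gene of VGLUT2, which is typical of subcortical neurons, was at 24.2 and 37.6 TPM, 55.7% and 84.5% of the sum. Slc17a7, the gene of VGLUT1 (chr7:45163949-45176142, mm10, plus strand), was at 18.4 and 4.54 TPM, 42.2% and 10.2% of the sum. The libraries thus moved in opposite directions for the 2 genes, and their pair was not apart, although it was with mm9 RPKM (1.87) and without replicate 1 (3.05). The 5 cortical excitatory markers were all lower in replicate 2 and the 6 hindbrain and spinal markers all higher, with the summed levels given above, and their part in the difference was not tested. Slc17a8, the gene of VGLUT3, was at 0.91 and 2.34 TPM, lower than Slc17a6 in both libraries (mean log2 ratio of Slc17a6 over Slc17a8 4.37 ± 0.52).

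The plasma membrane transporter genes were led by Slc1a3, the gene of GLAST in radial glia and astrocytes, at 57.7 TPM (replicate 1) and 76.5 TPM (replicate 2). Slc1a2, the gene of GLT-1, the main transporter of the adult brain, was at 22.5 and 35.2 TPM. Slc1a3 exceeded it by a mean log2 ratio of 1.24 ± 0.17. Slc1a1, a neuronal transporter gene, was at 12.4 and 16.6 TPM, and Slc1a6, known from cerebellar Purkinje cells, at 9.91 and 13.5 TPM. All 4 were higher in replicate 2, while their shares of the family differed by less than 3 percentage points: Slc1a3 took 56.3% and 54.0%, Slc1a2 21.9% and 24.8%, Slc1a1 12.1% and 11.7%, and Slc1a6 9.67% and 9.50%. Posterior mean TPM, the other deposited estimate, moved Slc1a3 over Slc1a2 to 0.97 and Slc1a2 over Slc1a1 from 0.97 to 1.23, which exchanges which of the 2 pairs is apart. In Slc1a2 a 71-nt exon was included in 18.3% of reads (14.9% to 22.1%), with 17.8% in R1 and 18.6% in R2.

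**Figure D4:**
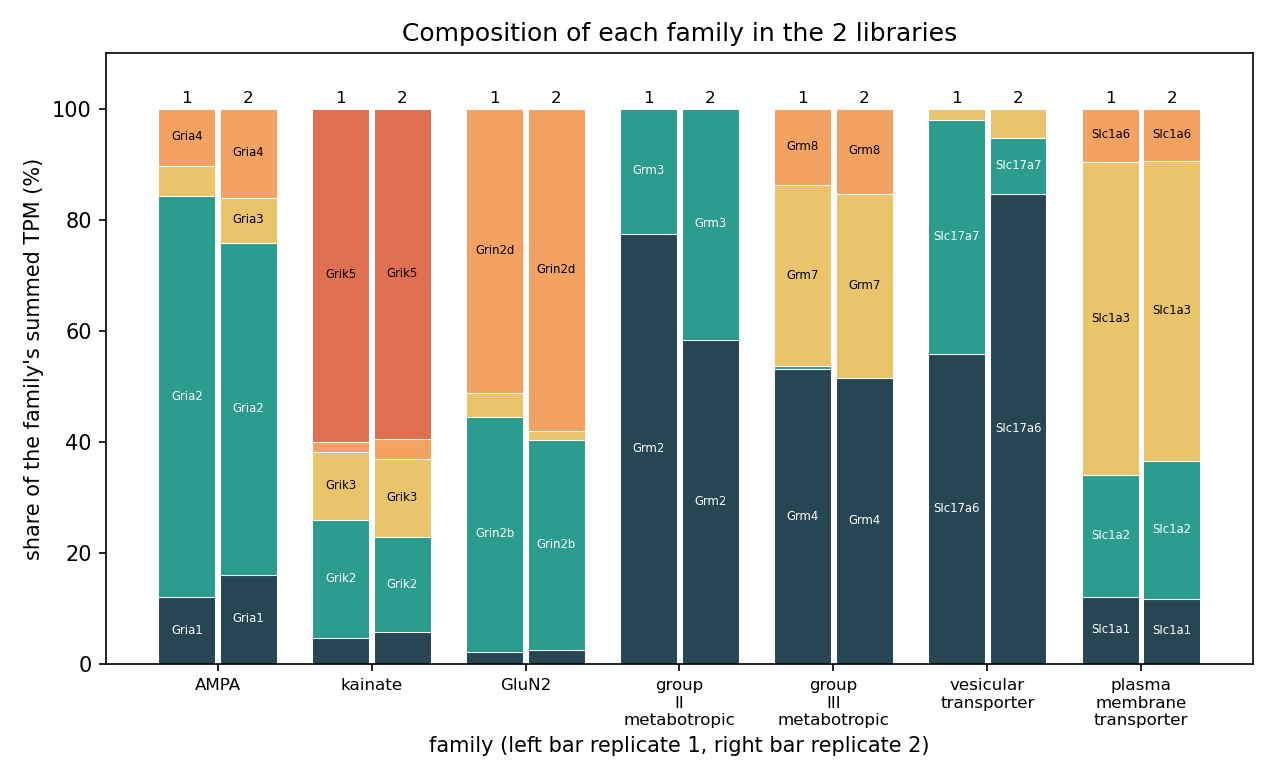
Share of each family's summed TPM, in percent, taken by each gene in replicate 1 (left bar) and replicate 2 (right bar). The kainate, group III and plasma membrane families keep nearly the same makeup, and Slc17a7 takes 42.2% of the vesicular transporters in replicate 1 and 10.2% in replicate 2.

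Between the libraries, 25 of the 31 genes were higher in replicate 2 and 6 were lower. Among the 27 with a mean of 1 TPM or more, 23 were higher, against 51.0% of 13642 protein-coding genes at that level. The median log2 ratio of replicate 2 over replicate 1, on log2(TPM + 1), was 0.44 over the 31 genes. Over the 27 with a mean of 1 TPM or more it was 0.57, against 0.01 over protein-coding genes at that level. Rescaling TPM without mitochondrial and spike-in rows gave 0.64 and 0.07 for the latter 2. Most of these are long transcripts: 26 of the 31 have an effective length of 3000 nt or more. The 4855 protein-coding genes of that length with a mean of 1 TPM or more had a median log2 ratio of 0.21. Of these, 74.8% were higher in replicate 2. The 24 members of that length with a mean of 1 TPM or more had a median of 0.61. Other marker lists also differed 2-fold or more between the libraries: meninges and mesenchyme summed to 183 and 388 TPM, midbrain and cerebellum to 26.8 and 61.4 TPM, forebrain to 442 and 219 TPM and intermediate progenitors to 158 and 68.8 TPM. The part of length and of these and the regional markers in the shift was not tested.

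Only 4 genes lay beyond 2-fold. Grm3, Grin2d and Grin3a were 2-fold or more higher in replicate 2, with log2 ratios of 1.06, 1.04 and 1.01. Of protein-coding genes with a mean of 1 TPM or more, 1.80% were. Grm3, Grin2d and Grin3a all lie close to the threshold, and Grik4 (0.91) was just outside it. Slc17a7 was the single gene 2-fold or more lower, with a log2 ratio of -1.80, where 0.740% of protein-coding genes at that level were. The next lowest were Gria2 (-0.45), Grin2c (-0.25) and Grik2 (-0.22). With a pseudocount of 0.1 in place of 1, Grik4, Grin2a and Slc17a8 also passed, and with 5 none of the higher genes did.

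**Figure D5:**
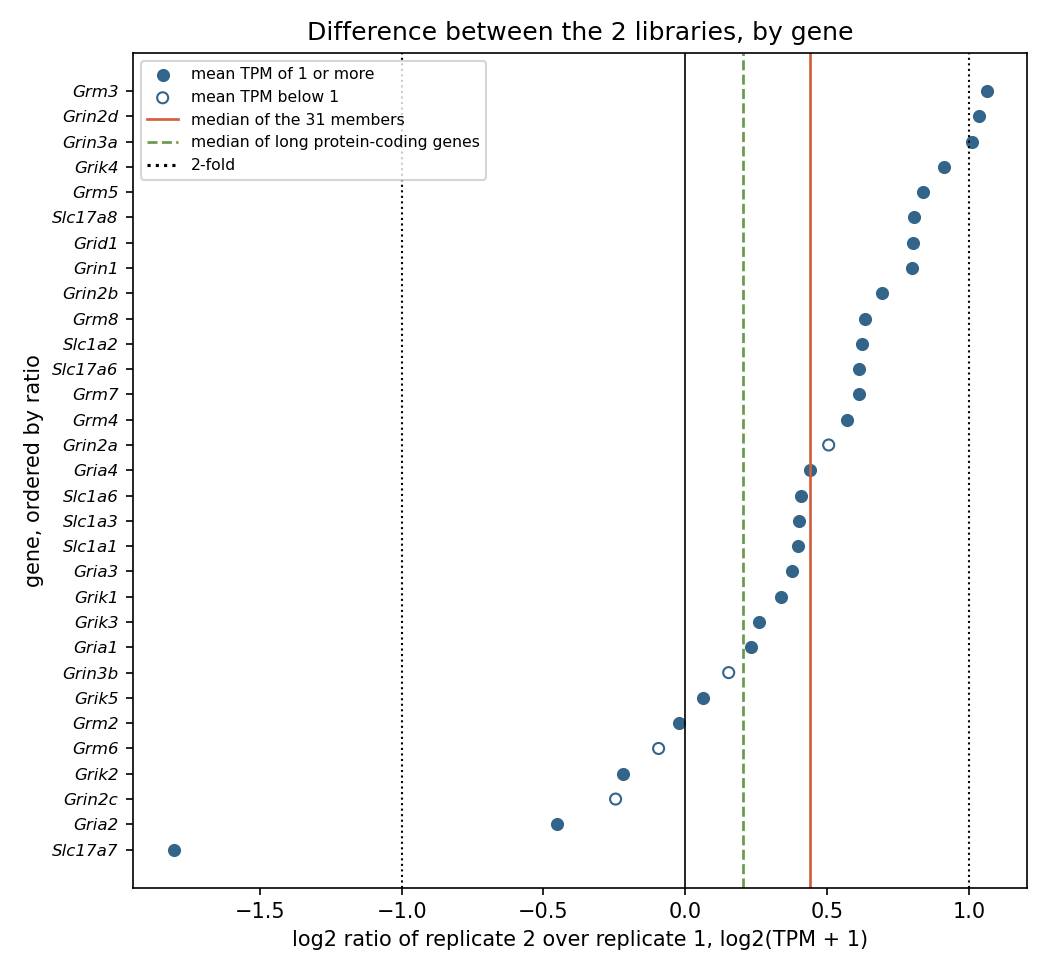
Log2 ratio of replicate 2 over replicate 1 for each of the 31 genes, on log2(TPM + 1), in order of the ratio, with open circles for mean levels below 1 TPM. The solid coloured line is the median of the 31 genes (0.44). The dashed line is that of long protein-coding genes with a mean of 1 TPM or more (0.21), and Slc17a7 lies apart at -1.80.

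Many of the genes have long genomic spans, a property the choice by symbol did not use. The median span was 132 kb, against 24.9 kb over protein-coding genes with a mean of 1 TPM or more. Of the 31, 17 spanned 100 kb or more (54.8%, against 15.5% of those genes). Grm7, at 922 kb, spanned the most and Grin3b, at 6.48 kb, the least. The longest intron of each gene was taken from the annotated junctions in the junction table, and the 4 longest of these are given. In Grm7, 98 reads joined the exons around a 268-kb intron, and in Grik1 156 around a 233-kb intron. In Grin2a, 13 reads joined those around a 230-kb intron, and in Grid1 206 around a 225-kb intron. An annotated intron with no junction in that table could not be picked.

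Of the 31 genes, 24 had several annotated transcripts, and 18 of these had a mean of 5 TPM or more. The leading transcript was the same in both libraries in 17 of the 18 and held 50% or more of the TPM in both in 14. Gria1, Gria2, Grik1 and Grin1, all with alternative exons described above, were the 4 without such a transcript. Short transcripts weigh more in TPM than in counts. In Grin2b, transcripts under 1000 nt held 25.8% and 23.9% of TPM and 0.595% and 0.585% of expected counts, so its coding level above 1000 nt was 7.38 and 12.7 TPM.

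The listed partners of glutamate signalling, 48 genes of synthesis, auxiliary subunits, scaffolds and synaptic organizers, were all at 1 TPM or more in both libraries. Of all protein-coding genes 62.2% were, but the list was chosen with earlier results of these data known. The highest was Cnih2, an AMPA receptor auxiliary subunit and export factor, at 374 TPM (replicate 1) and 334 TPM (replicate 2). Glul, the glutamine synthetase of glia, was at 126 and 173 TPM. The AMPA receptor auxiliary subunit genes Cacng7 and Shisa7 were at 114 and 125 TPM and at 114 and 122 TPM. All 4 stood at levels like those of Gria2 and Grik5 or above them. Of the 48 partners, 36 were higher in replicate 2, with a median log2 ratio of 0.21. Among protein-coding genes with a mean of 1 TPM or more, 51.0% were higher and the median was 0.01. For those of an effective length of 3000 nt or more, the values were 74.8% and 0.21. Many of the 48 partners are shorter, such as Cnih2 (1018 and 1028 nt in replicates 1 and 2). That set is therefore not matched to them in length, and the longer partners were not taken alone. Nptxr, the neuronal pentraxin receptor, at 17.1 and 40.8 TPM, was 2-fold or more higher. So was Slc1a4, a neutral amino acid transporter, at 16.0 and 33.2 TPM, and none was 2-fold lower. Among protein-coding genes with a mean of 1 TPM or more, 1.80% were 2-fold or more higher and 0.740% lower. The 2 mm9 RPKM values, not tied to the samples, were 6.38 and 6.79 for Nptxr, nearly equal, and 3.81 and 2.09 for Slc1a4.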

How the data were processed

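RNA of the 2 libraries was analysed from the deposited tables. The expected counts, TPM and FPKM of genes and transcripts were estimated by the authors on mm10 with GENCODE M4, per the deposited text notes, which name no tool. The deposited TPM include spike-in and mitochondrial rows. Rows that name no gene (97 spike-ins, 4.12% and 3.53% of counts in replicates 1 and 2, and 26248 numbered rows with 0 counts) were left out of library totals. The mm9 gene values deposited are RPKM on Ensembl 65, per the file headers, with replicate numbers not tied to samples. Junction read counts on mm9 were deposited with a reproducibility fraction, low where reproducible; the sources used here do not say how they were made. Their R1 and R2 sum to the deposited count in every row.

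Symbols, biotypes and coordinates came from GENCODE vM21 by Ensembl identifier, matched for all 31 members and 48 partners. Flip and flop were told apart by a serine or asparagine codon in the exon. The mm9 flip and flop exons were tied to mm10 ones through shared transcript identifiers. The 41-nt exon of Gria2 and the Grin1 cassettes were each the only internal exon of that length in the gene's vM21 transcripts. No coordinate was converted. Transcripts without a vM21 entry, among them most of Grik2, have no biotype, so Grik2 has no coding level. Members and lists were chosen with earlier results of these data known. Named were all members, the 5 highest partners, and partners 2-fold apart. The values of 1 partner are not reported here. Pairs used TPM without a pseudocount and ratios between libraries log2(TPM + 1), which understates differences of low genes. TMM factors came from edgeR 4.0.16 and size factors from DESeq2 1.42.0, on rounded expected counts with a summed count of 10 or more, for alternatives only. The log2(TPM + 1) ratio was tested on simulated gene counts, and the other steps were not. Python 3.11.15, scipy 1.17.1 and R 4.3.3 were used. Limits set by counting were exact Clopper-Pearson intervals at 95%. Alternatives covered thresholds, pseudocounts, scaling, posterior mean TPM, FPKM, mm9 values, each library left out, and junction filters and sides; coding transcripts alone were added after seeing the data.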

Additional observations from a re-analysis of the deposited data

How the results depend on the processing

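No paired analysis was possible because both libraries belong to 1 group. The count of genes at 1 TPM or more in both libraries, 26, was 20 to 29 under the other thresholds, units and scalings, and 28 without replicate 1 and 26 without replicate 2. The count 2-fold or more higher in replicate 2 was 6 with a pseudocount of 0.1 and 0 with 5, and 3 or 4 under other scalings. The count lower stayed at 1. The median log2 ratio was 0.58 with a pseudocount of 0.1, 0.32 with 5, and 0.57 over genes with a mean of 1 TPM or more. It lay between 0.44 and 0.51 under the other settings.

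Of the 16 pairs, 12 were apart, as were 12 with posterior mean TPM and with either library left out, 9 with a pseudocount of 1, 13 with mm9 RPKM, and 11 of 14 with coding transcripts of 1000 nt or more (chosen after seeing the data; the 2 pairs of Grik2 were not run). The pairs behind these counts were not the same: without replicate 1, Grm5 over Grm3 (0.86) and Grm2 over Grm3 (0.48) lost the call and Slc17a6 over Slc17a7 (3.05) and Slc1a2 over Slc1a1 (1.08) gained it. No mean ratio changed sign. Those that moved by more than their SD were as follows. With mm9 RPKM, Gria2 over Gria1 was 1.60, Gria2 over Gria3 2.54, Grin2b over Grin2d -1.02, Grin1 over Grin2b 1.98, Grm7 over Grm8 1.48 and Slc1a2 over Slc1a1 1.13. With coding transcripts, Gria2 over Gria1 was 1.13, Gria2 over Gria4 1.19, Gria2 over Gria3 2.39, Grin2b over Grin2a 4.84, Grin1 over Grin2b 1.36 and Grm7 over Grm8 1.08. With a pseudocount of 1, Grin2b over Grin2a was 2.96, Grm7 over Grm8 0.99 and Slc17a6 over Slc17a8 3.63. With posterior mean TPM, Slc1a3 over Slc1a2 was 0.97 and Slc1a2 over Slc1a1 1.23. The cause was not tested.

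The leading gene of each of the 8 families with 2 or more members was the same in both libraries, and with coding transcripts in 7 of 7. Read from the upstream side alone, the flop share of Gria2 was 70.2%, which reverses the order of its forms. Shares of low genes and rare exons rest on few reads, and 2 libraries of 1 group give no error beyond their own difference.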

Other observations

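Other reads in the 31 genes fell on junctions that Ensembl 65 does not annotate. At 50 reads or more there were 16 such junctions in 7 of the genes. Grik5 held 6 of them, with 56 to 304 reads, and Gria2 held 5, with 159 to 513 reads. Grik1, Grik2, Slc17a6, Grm7 and Grm8 held 1 each, with 195, 136, 86, 73 and 51 reads. In Grik5 all unannotated junctions together took 2.84% of the junction reads, in Gria2 8.47% and in Grik1 17.2%.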
